A study of Homo sapiens with 9 samples.

Results

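TMED10 and its relatives of the p24 family were followed across 9 libraries of MDA-MB-468 cells. They were picked by symbol from the 56809 genes of the count table: TMED1, TMED2, TMED3, TMED4, TMED5, TMED7, TMED8, TMED9 and TMED10, which makes 9 members, each present in the table and each past the filter on low counts. TMED10 was chosen because it had been seen to move in opposite ways under the 2 hairpins, so its differences are given as a description with no test. The other 8 members were taken for their family name and were tested.

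MDA-MB-468 cells are a long-used line from a human breast tumour. All 3 groups were infected cells, as the labels have it: the control group carried the empty vector pSicoR, and the others carried shLMO2-1 or shLMO2-2 in that vector, each with 3 libraries of polyadenylated RNA. Harvests are given as 200000 cells. A short hairpin is processed by the cell into a silencing RNA against matching transcripts. The hairpins carry the name of LMO2, which encodes a LIM-only adaptor of transcription factor complexes. The labels give no second cell line, no separate clones and no separate cultures, so p-values measure the spread between these libraries, which may be technical.

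The p24 proteins are small membrane proteins that shuttle between the endoplasmic reticulum (ER) and the Golgi. A luminal GOLD domain and a coiled coil face the cargo, and a short cytosolic tail faces the vesicle coats COPII (ER to Golgi) and COPI (Golgi back to ER). Members of the alpha, beta, gamma and delta subfamilies assemble with each other, and the loss of one can destabilise its partners. They are best known for sorting proteins that hold on to the membrane by a glycosylphosphatidylinositol (GPI) anchor. Here TMED10 is the delta member, TMED2 the beta member, TMED4 and TMED9 are alpha members, TMED1, TMED3, TMED5 and TMED7 are gamma members, and TMED8 is a relative that shares the GOLD domain.

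The ends of the coding sequences were compared between these members in a short window. The last 13 codons before the stop codon are shown for the delta member, an alpha member, the beta member and the gamma member TMED5, because the values below turn on them. They come from the principal transcript of each gene in GENCODE 29 (GRCh38), run 5′ to 3′ on the coding strand, and capitals mark neighbouring phenylalanine codons and, within the last 5 codons, neighbouring lysine codons.
TMED10: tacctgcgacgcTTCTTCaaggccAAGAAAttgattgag
TMED9: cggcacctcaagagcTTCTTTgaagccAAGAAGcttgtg
TMED2: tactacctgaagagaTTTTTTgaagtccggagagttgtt
TMED5: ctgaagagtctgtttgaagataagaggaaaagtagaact
The TMED10 end lies in an exon at chr14:75134888-75134926 on the minus strand, that of TMED9 at chr5:177595375-177595413 (plus), that of TMED2 at chr12:123596688-123596726 (plus) and that of TMED5 at chr1:93154673-93154711 (minus). TMED10, TMED9 and TMED4 had both marks, and TMED1 and TMED2 had the phenylalanine mark alone. Within these 13 codons TMED3, TMED5, TMED7 and TMED8 had neither. The windows of TMED3 and TMED7 begin with a phenylalanine codon, and the codon before it was not read. A pair across that edge would be missed, so the mark is not shown to be absent from these tails. Phenylalanine and lysine residues in p24 tails are known as contacts for the COPII and COPI coats.

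Library totals lay between 15494486 and 23069456 estimated counts. Control replicate 1 stood apart within its group: counts of replicates differed by a chi-square per gene of 17.2 and 25.2 between it and the other controls, against 4.79 to 12.5 for the other pairs of a group. Epithelial markers of the line (KRT7, KRT8, KRT18, KRT19, EPCAM, CDH1 and EGFR) were detected in each library, with summed levels from 11600 to 15100 CPM, which are counts scaled to a common library size. The sums were 11600 to 12300 in control, 14300 to 15100 in shLMO2-1 and 13100 to 14200 in shLMO2-2, and their part in the results was not tested. EGFR was the largest part of them, at 4820 to 7880 CPM over the libraries. Each keratin held between 1000 and 2660 CPM, EPCAM 372 to 442 and CDH1 276 to 338. LMO2 itself rested on 4, 35 and 19 counts in the controls, 2, 1 and 6 in shLMO2-1 and 1, 4 and 3 in shLMO2-2. In bulk RNA, fewer cells with a transcript and less of it per cell cannot be told apart.

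All members were expressed. Compared per kilobase of the principal transcript, TMED2 was the most abundant in the controls, at 106 ± 4.07 CPM per kilobase (SD, n = 3), followed by TMED9 at 82.6 ± 6.92 and TMED10 at 59.9 ± 0.975. TMED3 (55.3 ± 6.82) and TMED7 (50.9 ± 3.53) came next, and their control libraries overlapped with each other, as did those of TMED10 and TMED3. Below them stood TMED4 at 38.0 ± 1.43, TMED5 at 25.1 ± 1.224, TMED1 at 17.5 ± 3.23 and TMED8 at 2.42 ± 0.247, with no overlap between neighbours in that order from TMED7 downward. This scale divides each gene's reads by the length of 1 transcript, from 1340 bases for TMED1 to 7784 for TMED8, and a cell that uses shorter or longer forms would shift it. The gamma member TMED6, which is no member here, had at most 5 counts in a library.

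TMED10 (chromosome 14, 75131470–75176631, minus strand, GENCODE 29, GRCh38) encodes the delta p24 protein, which is also known as a modulator of gamma-secretase. Its level, in CPM on the TMM-scaled library totals, was 243, 251 and 248 in control replicates 1 to 3. The shLMO2-1 libraries held 198, 209 and 212 CPM, and the shLMO2-2 libraries 299, 296 and 335 CPM. The 3 groups did not overlap: every shLMO2-1 library lay below every control and every shLMO2-2 library above. The means were 247 ± 4.03, 206 ± 7.18 and 310 ± 21.7 CPM (SD, n = 3).

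In log2 terms TMED10 was −0.26 (SE 0.0627) in shLMO2-1 against control and 0.33 (SE 0.0624) in shLMO2-2 against control, or 16.7% less and 25.3% more transcript. The direct difference, shLMO2-2 against shLMO2-1, was 0.59 (SE 0.0627), or 50.4% more transcript. Both hairpins were set against the same 3 control libraries, and these values are what TMED10 was chosen for. By the size of the difference between the hairpins TMED10 stood at place 896 of 14709 tested genes. Against control it stood at place 4664 in shLMO2-1 and 3612 in shLMO2-2. These places take no account of counts or SEs. Over the 7644 genes with a mean of at least 22 CPM, the median size of the difference between the hairpins was 0.076. Against control that median was 0.124 in shLMO2-1 and 0.127 in shLMO2-2. Without control replicate 1 the TMED10 values were −0.28, 0.305 and 0.59. With each library's trends in GC content and transcript length removed they were −0.18, 0.43 and 0.61, each with its sign as before.

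TMED10 counts ran from 3208 to 7452 per library and lay within 0.002 of a whole number in 9 of 9 libraries. The processed copies TMED10P1 and TMED10P2 held at most 4.78 and 6 counts, and the overlapping antisense gene AL049780.2 held 0 in each library, which allows up to 3 counts by counting error alone. TMED4, TMED8 and TMED9 counts were also whole in 9 of 9 libraries. Those of TMED1, TMED2, TMED5 and TMED7 were whole in 0 of 9, and fractions of this kind arise where a program splits reads between features.

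**Figure D1:**
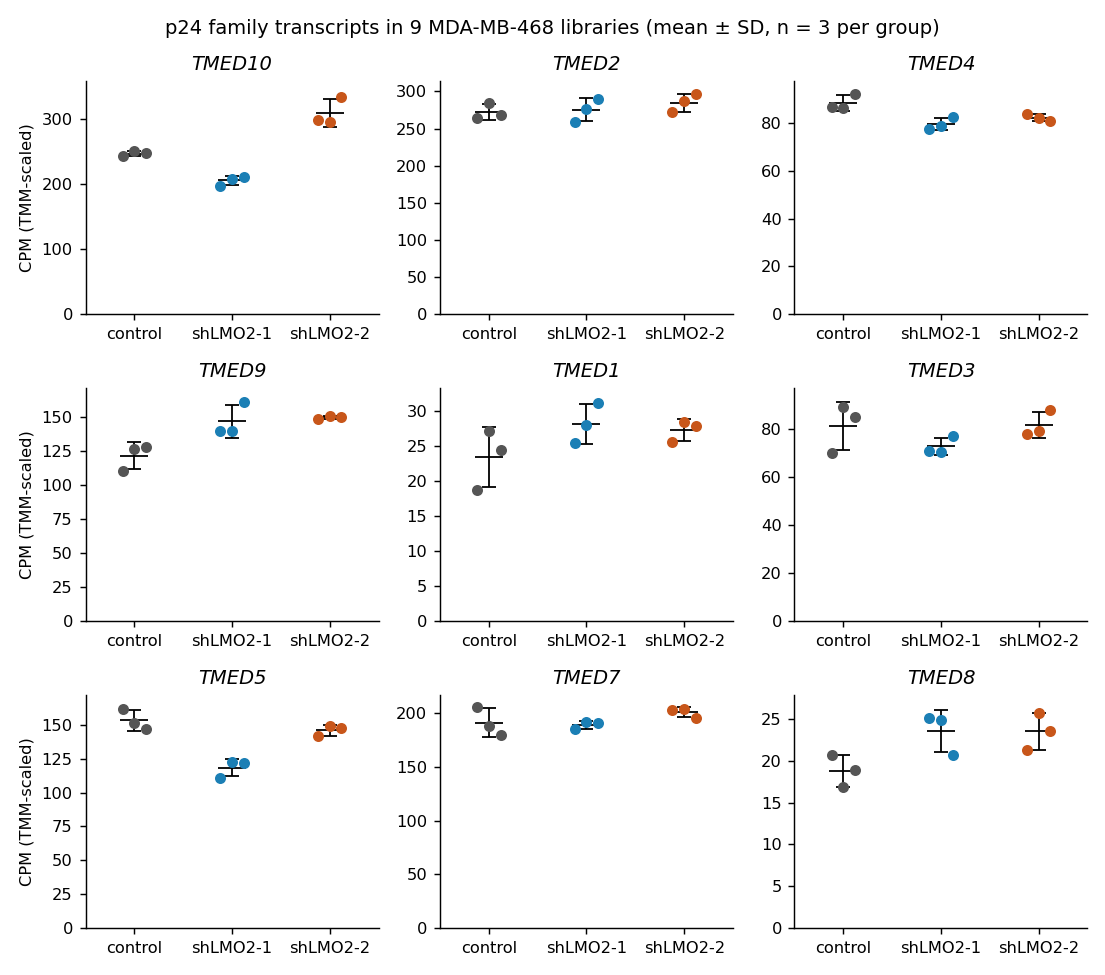
Level of each p24 member in TMM-scaled CPM (vertical axes, from 0) in the 3 libraries of each group (points), with the mean and SD (black). The TMED10 libraries form 3 separate groups, from 198 CPM in shLMO2-1 to 335 CPM in shLMO2-2, while those of TMED2 overlap.

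TMED2 (chromosome 12, 123584531–123598577) is the beta member and a close partner of TMED10 in the p24 complex. Its libraries held 265, 284 and 268 CPM in control, 259, 277 and 290 in shLMO2-1 and 272, 287 and 296 in shLMO2-2, and the groups overlapped throughout. Its log2 difference was 0.02 (95% interval −0.12 to 0.15, edgeR adjusted p 0.914) in shLMO2-1 and 0.06 (−0.07 to 0.20, adjusted p 0.57) in shLMO2-2. Between the hairpins it was 0.05 (−0.09 to 0.19, adjusted p 0.871). TMED10 differed there by 0.59, a value it was chosen for, so the 2 genes were not tested against each other. In the first of these contrasts the sign of TMED2 was not stable: it was −0.02 with scaling to total counts alone, −0.01 without control replicate 1 and −0.02 without shLMO2-1 replicate 3.

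The alpha member TMED9 (chromosome 5, 177592158–177596124) was higher in cells with either hairpin, and passed the test in 1 of them. Its libraries held 110, 127 and 128 CPM in control, 140, 140 and 161 in shLMO2-1 and 149, 151 and 150 in shLMO2-2. All 6 hairpin libraries lay above all 3 controls. TMED9 rose in shLMO2-2 by 0.30 on the log2 scale (SE 0.078, edgeR adjusted p 0.0385), and was 0.27 (SE 0.0783, adjusted p 0.0572) in shLMO2-1. The difference between the hairpins was 0.03 (95% interval −0.14 to 0.20, adjusted p 0.949).

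The TMED9 call in shLMO2-2 rested on single libraries. It was lost without control replicate 1 (log2 0.22, adjusted p 0.0841, edgeR) or control replicate 3 (0.34, 0.0659), without shLMO2-1 replicate 1 (0.30, 0.0515) or replicate 2 (0.29, 0.0611), without shLMO2-2 replicate 1 (0.30, 0.0911), 2 (0.29, 0.121) or 3 (0.29, 0.108), and with only the groups compared in the fit (0.29, 0.0567). Over all 17 alternatives the adjusted p ran from 0.00847 to 0.121 while the difference stayed positive. In shLMO2-1 it ran from 0.0187 to 0.186, and TMED9 passed there with no filter on low counts (0.0295), in DESeq2 (0.0204) and with GC and length trends removed (0.0361). TMED9 also passed there with the replicate number added to the edgeR fit (0.0187).

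The other alpha member, TMED4 (chromosome 7, 44577894–44582287), held 86.5, 86.2 and 92.1 CPM in control. It held 77.5, 78.5 and 82.5 CPM in shLMO2-1 and 83.7, 82.1 and 80.8 CPM in shLMO2-2, so all 6 hairpin libraries lay below the controls. The log2 differences of −0.15 (SE 0.0601, edgeR adjusted p 0.15) and −0.10 (SE 0.0598, adjusted p 0.323) did not pass the test. The alpha members TMED4 and TMED9 thus had differences of unlike sign against control, and a test of the one gene against the other was not run.

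Among the gamma members TMED5 changed. TMED5 (chromosome 1, 93149742–93180728) held 162, 151 and 147 CPM in control and 142, 149 and 148 in shLMO2-2, which overlapped. The shLMO2-1 libraries held 111, 123 and 122 CPM and lay below all other libraries. TMED5 fell in shLMO2-1 by 0.37 on the log2 scale (SE 0.065, edgeR adjusted p 0.00672), or 22.7% of its transcript, and was −0.07 (SE 0.0645, adjusted p 0.547) in shLMO2-2. The direct difference between the hairpins, 0.30 (SE 0.0648), did not pass, with an adjusted p of 0.0687.

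Over the alternatives the fall of TMED5 in shLMO2-1 kept its sign, from −0.41 to −0.26, and its call was lost with GC and length trends removed (−0.26, edgeR adjusted p 0.058). That setting also turned the sign in shLMO2-2, to 0.07. The difference between the hairpins did pass with no filter on low counts (adjusted p 0.0274), in DESeq2 (0.00256), with only the groups compared (0.0499) and without control replicate 1 (0.0292). It also passed with the replicate number added to the fit. The range over the alternatives was 0.00256 to 0.288. TMED5 overlaps CCDC18 on the other strand, which held 68 to 244 counts against 1848 to 3290 for TMED5, and the use of strand in counting is not given in the sources used here.

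TMED3, TMED7 and TMED1, the other gamma members, passed in no contrast. TMED7 (chromosome 5, 115613508–115632992) held 206, 188 and 180 CPM in control, 185, 192 and 191 in shLMO2-1 and 203, 204 and 196 in shLMO2-2. The log2 differences were −0.01 (95% interval −0.15 to 0.12) and 0.07 (−0.07 to 0.21), with edgeR adjusted p-values of 0.92 and 0.522. The readthrough gene TMED7-TICAM2, which shares its exons, took 0.351% to 3.38% of their joint counts, and adding it gave means of 194, 193 and 203 CPM. With GC and length trends removed TMED7 passed in shLMO2-2 (0.20, adjusted p 0.0406) and turned sign in shLMO2-1 (0.11), as it did without control replicate 1 (0.03).

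TMED3 (chromosome 15, 79311062–79427432) held 70.1, 89.1 and 85.3 CPM in control, 71.0, 70.7 and 77.2 in shLMO2-1 and 78.2, 79.3 and 88.1 in shLMO2-2. The shLMO2-2 libraries lay above those of shLMO2-1, and control replicate 1 lay below both sets. The log2 difference in shLMO2-1 was −0.16 (SE 0.0933, edgeR adjusted p 0.325), and it passed without control replicate 1 (−0.27, adjusted p 0.047). Between the hairpins it was 0.17 (SE 0.093, adjusted p 0.602).

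TMED1 (chromosome 19, 10832438–10836318) was low and uneven, at 18.7, 27.2 and 24.4 CPM in control, 25.4, 27.9 and 31.1 in shLMO2-1 and 25.5, 28.5 and 27.8 in shLMO2-2. Its log2 differences of 0.26 (SE 0.132, edgeR adjusted p 0.255) and 0.22 (SE 0.131, adjusted p 0.338) did not pass, and without control replicate 1 they were 0.12 and 0.07. TMED1 overlaps DNM2 on the other strand, which held 4141 to 6272 counts. Whether reads of DNM2 were counted for TMED1 was not tested.

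TMED8 (chromosome 14, 77335021–77377109), the relative with the GOLD domain, held 20.8, 16.9 and 18.9 CPM in control, 25.2, 24.97 and 20.7 in shLMO2-1 and 21.3, 25.8 and 23.5 in shLMO2-2. Its log2 differences were 0.33 (SE 0.118) and 0.32 (SE 0.117), or 25.5% and 24.9% more transcript, with edgeR adjusted p-values of 0.115 and 0.114. TMED8 rested on 314 to 556 counts per library. With GC and length trends removed both passed (adjusted p 0.0334 and 0.0162).

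**Figure D2:**
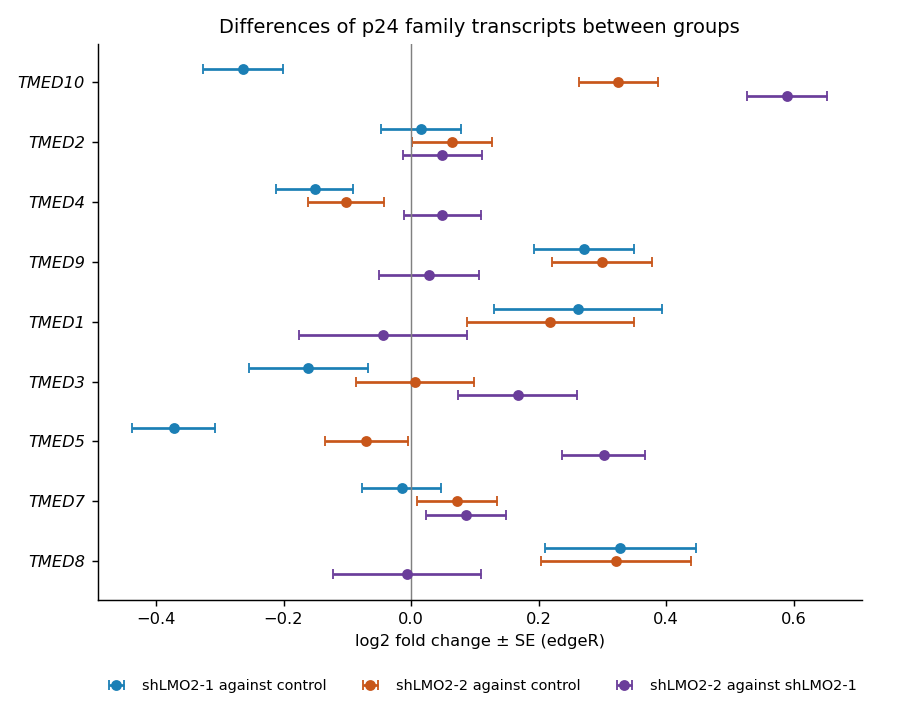
Log2 fold change with its SE (horizontal axis, edgeR) of the 9 p24 members (rows) in the 3 contrasts (colours). TMED10 lies at −0.26 and 0.33 against control on either side of 0, TMED5 at −0.37 and −0.07, and TMED9 at 0.27 and 0.30.

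Counted over the 8 tested members, edgeR called 1 lower (TMED5) in shLMO2-1, where 8.42% of all 14709 tested genes were called (4.54% higher and 3.88% lower), and 1 higher (TMED9) in shLMO2-2, where 8.97% were (4.94% higher and 4.04% lower). A count of 1 in 8 is close to that background. Between the hairpins 0 of 8 were called by edgeR, against a background of 0.768% (0.347% higher and 0.422% lower), with 1 (TMED5) at an unadjusted p under 0.05, 1 called by DESeq2 and 0 by limma-voom. Groups of libraries did not overlap for TMED4, TMED5 and TMED9 in shLMO2-1 against control, 3 of 8 where 28.3% of all genes had no overlap. In shLMO2-2 against control these were TMED4, TMED8 and TMED9, again 3 of 8 against 29.9%, and between the hairpins TMED3, TMED5 and TMED7, 3 of 8 against 18.1%. The median log2 difference of the 8 was 0.00, 0.07 and 0.05 in the 3 contrasts, beside 0.00 over all genes in each.

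Summed over the 9 members the control libraries held 1198 ± 20.9 CPM, those of shLMO2-1 1140 ± 46.9 and those of shLMO2-2 1306 ± 35.8 (SD, n = 3), and without TMED10 the sums were 951 ± 17.2, 934 ± 40.0 and 997 ± 19.6. TMED10 made up 20.6, 20.6 and 20.8% of the family's counts in the controls, 18.1, 18.3 and 17.8% in shLMO2-1 and 23.5, 22.7 and 24.9% in shLMO2-2. These shares did not overlap between groups. Shares of TMED2 were 22.7 ± 0.471, 24.2 ± 0.363 and 21.8 ± 0.395%, so TMED2 gave more counts than TMED10 in the control and shLMO2-1 means and fewer in the shLMO2-2 mean. Since TMED10 was chosen on its values, these shares describe and do not test.

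Across the 9 libraries TMED5 followed TMED10 most closely among the members, with a Pearson correlation of log2 CPM of 0.69, then TMED3 with 0.61, TMED7 with 0.50 and TMED2 with 0.48. TMED8 (−0.01), TMED1 (0.02), TMED9 (0.16) and TMED4 (0.22) stood lowest. These are descriptions over 9 libraries that fall into 3 groups, of which the shLMO2-2 libraries were the deepest (21726879 to 23069456 counts, against 15494486 to 19385187 in the others), and TMED5 stood at rank 408 of the 11030 genes compared. The genes most like TMED10, among genes with a mean of at least 5 CPM, were PRODH (0.98), a mitochondrial enzyme of proline breakdown, DBI (0.97), an acyl-CoA binding protein, and PQLC3 (0.97), a PQ-loop membrane protein. PRODH held 25.7, 29.3 and 28.1 CPM in control, 22.6, 22.04 and 23.3 in shLMO2-1 and 32.1, 32.5 and 36.3 in shLMO2-2, and its log2 difference between the hairpins was 0.57, that of DBI 0.20 and that of PQLC3 0.46. These genes were picked for following TMED10 in the same libraries, so their differences come from that choice and are no separate result.

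Promoters of TMED10 and TMED5 are shown since the shLMO2-1 libraries of both members lay below their controls, while in shLMO2-2 TMED10 lay above and TMED5 overlapped. Each is the 250 bases before the RefSeq start (GRCh38.p14), 5′ to 3′ on the gene's strand, at chr14:75176613-75176862 (minus) for TMED10 and chr1:93180414-93180663 (minus) for TMED5. Capitals mark the E-box CACGTG and the CCAAT box on either strand.
TMED10: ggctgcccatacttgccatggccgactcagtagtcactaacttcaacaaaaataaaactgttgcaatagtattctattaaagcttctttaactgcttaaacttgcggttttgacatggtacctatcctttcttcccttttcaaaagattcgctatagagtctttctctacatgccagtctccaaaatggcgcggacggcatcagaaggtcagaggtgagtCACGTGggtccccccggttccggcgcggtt
TMED5: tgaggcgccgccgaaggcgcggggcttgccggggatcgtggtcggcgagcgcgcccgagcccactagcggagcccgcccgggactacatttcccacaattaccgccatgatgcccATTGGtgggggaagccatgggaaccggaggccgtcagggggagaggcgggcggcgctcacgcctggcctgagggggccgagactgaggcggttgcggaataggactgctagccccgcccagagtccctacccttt
The table holds 8 windows of 300 bases for 7 members, TMED1 with 2 of them; TMED4 and TMED9 had no entry. TMED10's window had the lowest GC content of these, 48.3%, against 59% to 75% in the others and a median of 58.7% over 35116 windows. CACGTG was found in the TMED10 window alone among the members, and in 7.26% of all windows; this motif was added after the sequence was seen. CCAAT was found in windows of TMED1, TMED2, TMED5 and TMED7 (34.6% of all) and the GC box GGGCGG in those of TMED1, TMED2, TMED3, TMED5, TMED7 and TMED8 (45.0% of all). Motifs of factors that act with LMO2 were also searched on both strands: CAGCTG was in the TMED2 window (17.9% of all), and CAGGTG (20.6% of all) and AGATAA (10.3% of all) were in none of the 8. The unfolded protein response letters TGACGTG (1.97% of all), TGACGTCA (1.85%) and the ER stress response element (0.0769%) were in none either. These are matches of letters in short windows.

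The machinery that p24 proteins work with was read from lists of early secretory pathway genes, 123 in all with 119 tested. These take in the GPI anchor enzymes (28 tested) and gamma-secretase with its substrates (8 tested), beside the genes of transport between ER and Golgi. edgeR called 1 of 119 in shLMO2-1 (0.84%, background 8.42%), 4 in shLMO2-2 (3.36%, background 8.97%) and 0 between the hairpins (background 0.768%), where 6 had an unadjusted p under 0.05, DESeq2 called 1 and limma-voom 0. Of these edgeR calls the GPI anchor enzymes gave 1 in shLMO2-1 and 2 in shLMO2-2. The median log2 difference of the 119 was 0.01, 0.02 and 0.01, beside 0.00 over all genes in each contrast. With GC and length trends removed the counts against control were 6 and 8. In shLMO2-1 the count was 5 without control replicate 1 and 0 without shLMO2-1 replicate 3. In shLMO2-2 it was 1 without control replicate 3 and 1 without either shLMO2-2 replicate 2 or replicate 3.

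Of the coats, COPII and its ER exit sites had 19 tested genes, with 0 called in shLMO2-1 by edgeR (4 at an unadjusted p under 0.05, DESeq2 1, limma-voom 0) and 1 lower in shLMO2-2. That gene was MIA3, also called TANGO1, which helps load bulky cargo at ER exit sites. It held 60.5, 51.6 and 60.3 CPM in control and 44.8, 44.4 and 47.0 in shLMO2-2, and fell by 0.34 on the log2 scale (SE 0.0871, edgeR adjusted p 0.0363). The call was lost with GC and length trends removed (0.0818), with only the groups compared (0.0528), without control replicate 1 (0.0644) or 3 (0.117), without shLMO2-1 replicate 2 (0.0611), and without shLMO2-2 replicate 1 (0.0937), 2 (0.116) or 3 (0.0833). The range over its alternatives was 0.0077 to 0.117.

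COPI and the ARF cycle had 17 tested genes, with 0 called in shLMO2-1 by edgeR (1 at an unadjusted p under 0.05, DESeq2 0, limma-voom 0) and 1 lower in shLMO2-2. ARF4, a small GTPase of coat recruitment, held 182, 189 and 185 CPM in control, 172, 178 and 186 in shLMO2-1 and 142, 142 and 161 in shLMO2-2. It fell in shLMO2-2 by 0.32 on the log2 scale (SE 0.066, edgeR adjusted p 0.0144, 0.000268 to 0.0656 over the alternatives). The call was lost without control replicate 3 (0.05) or shLMO2-2 replicate 2 (0.0656).

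The other ER-Golgi cargo receptors (18 tested, LMAN1, SURF4 and the KDEL receptors among those listed), the ER-Golgi SNAREs and tethers (29 tested) and gamma-secretase with its substrates APP and APLP2 (8 tested) had 0 edgeR calls in each contrast. At an unadjusted p under 0.05 the receptors had 3, 4 and 0 genes in shLMO2-1, in shLMO2-2 and between the hairpins, the SNAREs and tethers 3, 4 and 1, and the gamma-secretase list 1, 1 and 0. DESeq2 called 1, 0 and 0 receptors, 2, 1 and 0 SNAREs and tethers, and 0, 1 and 0 genes of the gamma-secretase list. limma-voom called 1 of the SNAREs and tethers in shLMO2-2 and none of the 3 lists elsewhere.

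The enzymes that build and trim the GPI anchor (28 tested) had 1 higher gene in shLMO2-1 (3.57%, background 8.42%) and 2 in shLMO2-2 (7.14%, background 8.97%) by edgeR, so the list was not above the background. PIGQ, a subunit of the enzyme of the first step, held 12.6, 15.5 and 13.6 CPM in control, 18.8, 19.7 and 23.3 in shLMO2-1 and 21.3, 19.5 and 22.5 in shLMO2-2, with all hairpin libraries above the controls. It rose by 0.56 (SE 0.118, edgeR adjusted p 0.0156) and 0.60 (SE 0.116, adjusted p 0.0113). The shLMO2-1 call was lost without control replicate 3 (0.0584) or shLMO2-1 replicate 3 (0.0627), in a range of 0.001 to 0.0627, and the shLMO2-2 call without shLMO2-2 replicate 3 (0.0517), in a range of 0.000325 to 0.0517. GPAA1, a subunit of the transamidase that attaches the anchor, rose in shLMO2-2 by 0.44 (SE 0.105, adjusted p 0.0278, range 0.000143 to 0.108), from 74.8 ± 11.7 to 101 ± 7.36 CPM (SD, n = 3). That call was lost with only the groups compared (0.0608) and without control replicate 3 (0.0798), shLMO2-2 replicate 2 (0.0865) or shLMO2-2 replicate 3 (0.108).

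Genes of GPI-anchored proteins, the cargo that p24 complexes are known for, were read from a list of their own. That list was chosen with earlier results of these data known, so its shares describe and do not test. Of 55 listed 39 were tested, and edgeR called 10 in shLMO2-1 (25.6%, 7 higher and 3 lower, background 8.42%) and 11 in shLMO2-2 (28.2%, 7 higher and 4 lower, background 8.97%). Their median log2 difference was −0.01 and 0.04, beside 0.00 over all genes. Between the hairpins 2 were called (5.13%, background 0.768%). The count in shLMO2-1 was 6 without shLMO2-1 replicate 3, and that in shLMO2-2 was 6, 6 and 7 without shLMO2-2 replicates 1, 2 and 3. Without control replicate 1 the counts were 11 and 10. Between the hairpins the count was 1 without control replicate 2 or 3, shLMO2-1 replicate 2 or 3, or any 1 shLMO2-2 library.

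BST2, also called tetherin and known as an interferon-stimulated gene, had the smallest p of this list against control in both hairpins. It held 12.99, 16.4 and 15.01 CPM in control, 30.4, 33.5 and 33.4 in shLMO2-1 and 43.0, 42.6 and 46.4 in shLMO2-2. BST2 rose by 1.13 (SE 0.0988, edgeR adjusted p 0.00012) and 1.57 (SE 0.0979, adjusted p 1.66e-05). NT5E, the ectoenzyme CD73, held 181, 167 and 165 CPM in control, 247, 286 and 275 in shLMO2-1 and 198, 210 and 217 in shLMO2-2. NT5E rose in shLMO2-1 by 0.66 (SE 0.0713, adjusted p 0.000414) and in shLMO2-2 by 0.29 (SE 0.071, adjusted p 0.0327, range 0.00545 to 0.125). The shLMO2-2 call was lost with total counts (0.0527), with only the groups compared (0.0534), without control replicate 2 (0.0728) or 3 (0.108), and without shLMO2-2 replicate 1 (0.0539), 2 (0.113) or 3 (0.125). NT5E differed between the hairpins, shLMO2-2 against shLMO2-1, by −0.37 (SE 0.0708, adjusted p 0.0396). That call was lost without control replicate 2 (0.055) or 3 (0.0731), without shLMO2-1 replicate 2 (0.235) or 3 (0.112), and without shLMO2-2 replicate 1 (0.169), 2 (0.16) or 3 (0.108), in a range of 0.000337 to 0.235.

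LY6K, a member of the Ly6 family, rose in shLMO2-2 by 0.99 (SE 0.131, edgeR adjusted p 0.00168), from 7.07, 8.51 and 7.56 CPM in control to 16.3, 13.5 and 16.4, and held 10.97, 11.9 and 13.5 in shLMO2-1. LY6K rose there too, by 0.65 (SE 0.134, adjusted p 0.0147, range 0.00134 to 0.0602), a call lost without control replicate 3 (0.0535) or shLMO2-1 replicate 3 (0.0602). ALPP, placental alkaline phosphatase, was higher in shLMO2-2 than in shLMO2-1 by 0.87 (SE 0.114, adjusted p 0.00481, range 6.71e-10 to 0.0482), and than in control by 0.73 (SE 0.113, adjusted p 0.00351, range 5.32e-08 to 0.0238). It held 25.3, 28.8 and 35.3 CPM in control, 27.8, 26.6 and 26.8 in shLMO2-1 and 51.5, 51.2 and 45.4 in shLMO2-2. ALPP has near-identical relatives, so its counts are uncertain. ALPG, 1 of these, had group means of 0.380 to 0.756 CPM.

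CD14, a leukocyte marker with a GPI anchor, was among the genes called higher in both hairpins. The summed level of the 6 leukocyte markers listed was 1.53 to 2.20 CPM in control, 3.13 to 5.59 in shLMO2-1 and 3.83 to 4.52 in shLMO2-2, with CD3E and LYZ at 0 in each library and PTPRC at most 0.348 CPM. Their part in the counts of GPI-anchored proteins was not tested.

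**Figure D3:**
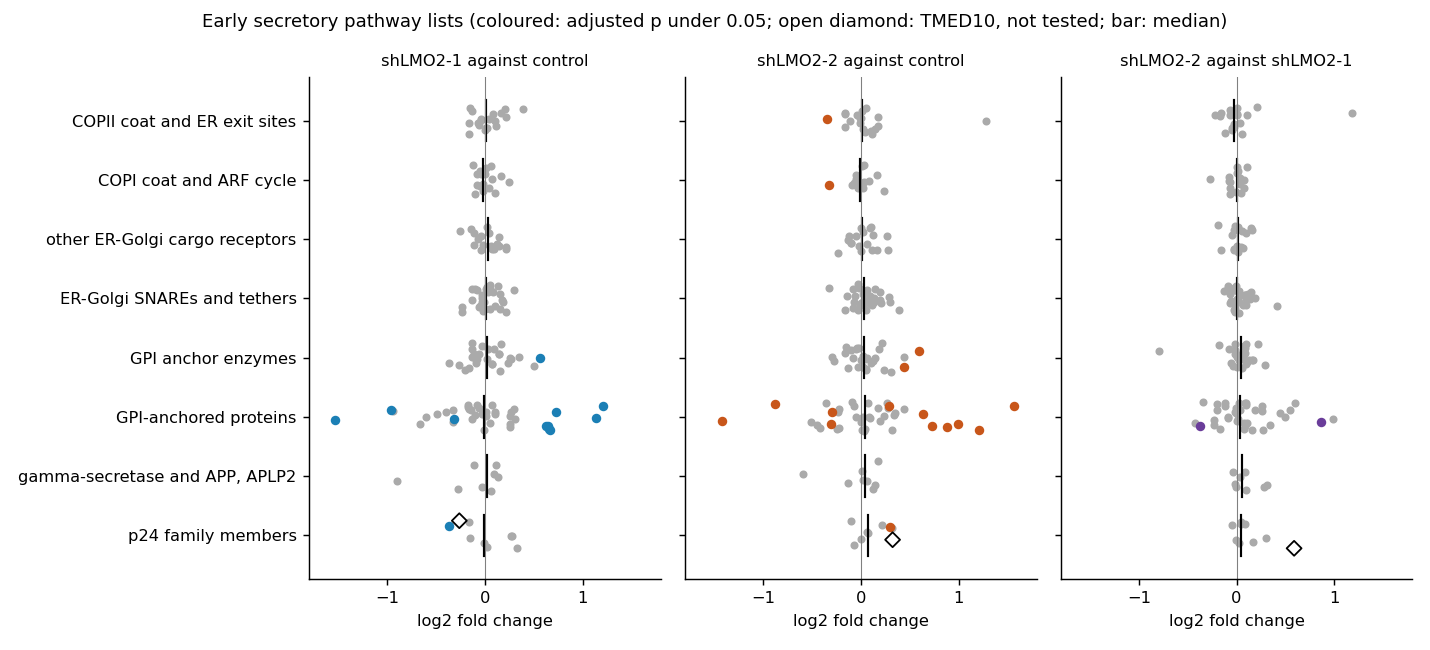
Log2 fold change (horizontal axes) of each tested gene (points) in 7 lists of the early secretory pathway and its cargo and in the p24 family, by contrast (panels), with genes called by edgeR in colour, list medians as bars and TMED10 as an open diamond. Most machinery genes lie near 0, GPI-anchored proteins spread from −1.54 to 1.57, and TMED10 lies at the far right of its family between the hairpins, at 0.59.

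The genes beside TMED10 on chromosome 14 were read to see whether the locus moved as a block. They are the 5 tested genes on each side, chosen after the TMED10 values were known. NEK9, a kinase gene whose centre lies 51 kb away, rose in shLMO2-2 by 0.54 on the log2 scale (SE 0.0973, edgeR adjusted p 0.00825, 3.73e-05 to 0.0445 over the alternatives). In shLMO2-1 it rose by 0.37 (SE 0.0982, adjusted p 0.0416, range 0.0125 to 0.139). That call was lost with total counts, in limma-voom, with only the groups compared, without control replicate 2 (0.1) or 3 (0.139), without shLMO2-1 replicate 1 (0.138), 2 (0.0651) or 3 (0.109), and without shLMO2-2 replicate 2 (0.0741). JDP2, a transcription factor gene 297 kb away, passed in shLMO2-1 alone (0.36, SE 0.0999, adjusted p 0.0489, range 0.0162 to 0.184). Its call was lost in 11 of 17 alternatives, among them the fits without any 1 control library, without shLMO2-1 replicate 1 (0.114) or 2 (0.184), and without any 1 shLMO2-2 library. The other 8 neighbours, FOS among them, passed against control in neither hairpin, and between the hairpins edgeR called 0 of 10. These counts of 2, 1 and 0 of 10 stand beside backgrounds of 8.42%, 8.97% and 0.768% over all genes. The count of 2 in shLMO2-1 is above its background share. It rests on 10 genes and on calls that were lost in several alternatives, and was not tested against that share. The largest difference of a neighbour between the hairpins, in size, was −0.41 (SE 0.355) for AF111167.2, a gene with a mean of 1.8 CPM, against 0.59 for TMED10.

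**Figure D4:**
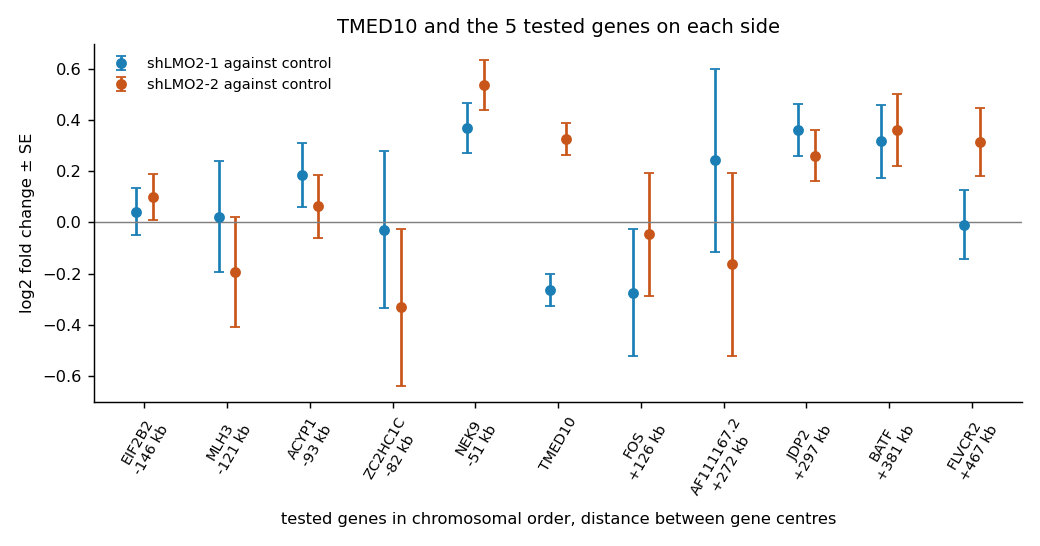
Log2 fold change against control with its SE (vertical axis) of TMED10 and the 5 tested genes on each side, in chromosomal order with the distance between gene centres in kb, for shLMO2-1 and shLMO2-2 (colours). NEK9 at −51 kb lies at 0.37 and 0.54, both above 0, where TMED10 lies at −0.26 and 0.33.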

How the data were processed

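The authors deposited estimated counts per gene symbol for 9 libraries. Salmon 0.12, DESeq2 1.22.2 and the build GRCh38.p12 are named in the submitters' processing notes, with no role given. Between 11.67% and 12.81% of values per library were not whole. Counts were rounded and tested with edgeR 4.0.16 in R 4.3.3 (TMM, filterByExpr with minimum count 10 and minimum total 15, LMO2 added back, 14709 genes, 99.91% of counts). All 9 libraries entered 1 quasi-likelihood fit with group as the only factor, p-values were adjusted over all tested genes (Benjamini-Hochberg), and genes were called at an adjusted p under 0.05. SEs derive from the fold change and F. CPM uses TMM-scaled totals. Coordinates and lengths come from GENCODE 29 by symbol, promoters from RefSeq (7 of 9 members matched). The fit was tested on simulated counts that held group differences alone. They lacked the deviations that same-numbered libraries share in these data, so that test does not cover them. Alternatives used limma 3.58.1, DESeq2 1.42.0, other scalings, filters, a replicate block, GC and length correction, and each library left out.

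The members and lists were chosen with earlier results of these data known, and lists were written from general knowledge. Named were all members, up to 2 called genes with the smallest p per list and contrast, and the 3 genes most like TMED10. Pairs of replicates differed by a chi-square per gene of at least 4.79, so none was counted as a duplicate. The limit given beside a count of 0 covers counting error alone, as PCR copies cannot be told from separate molecules here.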

Additional observations from a re-analysis of the deposited data

Results flagged for a closer look

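TMED10 differed between the hairpins by 0.59 on the log2 scale (shLMO2-2 against shLMO2-1). What drew attention to it is that all 3 shLMO2-1 libraries lay below all 3 controls and all 3 shLMO2-2 libraries lay above them. The difference was not tested, because TMED10 was chosen for it.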

How the results depend on the processing

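TMED10 kept its sign in 17 of 17 alternatives in each contrast, from −0.30 to −0.18 in shLMO2-1, 0.26 to 0.43 in shLMO2-2 and 0.53 to 0.62 between the hairpins. It was chosen for groups on opposite sides of the controls, so its sign had little room to turn and this is no test. Against control it moved most with GC and length trends removed, to −0.18 and 0.43. Of the 8 tested members, 1 was called in shLMO2-1 by the main edgeR fit. The count there was 2 with no filter on low counts, in DESeq2, with the replicate block or with GC and length trends removed. In shLMO2-2 the main count was 1, with 0 when only the groups compared were used and 3 with those trends removed. Between the hairpins the 0 became 1 with no filter, in DESeq2, with only the groups compared or with the replicate block. Without single libraries the counts were 1 to 2, 0 to 1 and 0 to 1. Early secretory genes numbered 1 in shLMO2-1 and 3 with total counts, 3 with no filter, 5 in DESeq2, 6 with the replicate block and 6 with trends removed (0 to 5 without single libraries). In shLMO2-2 they numbered 4, then 9 with no filter, 2 with only the groups compared, 10 with the replicate block and 8 with trends removed (1 to 5). Between the hairpins 0 became 1 in DESeq2, with the replicate block and with trends removed (0 to 0). GPI-anchored proteins, an addition made after seeing the data, ran from 6 to 11, 6 to 10 and 1 to 3 without single libraries. Signs turned where the difference was near 0. With total counts TMED2 in shLMO2-1 was −0.0225 and TMED3 in shLMO2-2 −0.0417, and TMED3 was −0.00117 with only the groups compared. With trends removed TMED5 in shLMO2-2 was 0.068, TMED7 in shLMO2-1 0.112, and between the hairpins TMED8 was 0.0587 and TMED9 −0.00196. Without single libraries TMED2 ran from −0.0239 to 0.0579 and TMED7 from −0.0583 to 0.0341 in shLMO2-1, TMED3 from −0.0987 to 0.0759 in shLMO2-2, and between the hairpins TMED1 from −0.112 to 0.0271, TMED8 from −0.0973 to 0.0567 and TMED9 from −0.00863 to 0.0929. With the replicate block TMED5 passed between the hairpins (adjusted p 0.0396) and TMED9 in shLMO2-1 (0.0187). The cause of these changes was not tested.

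Calls over all genes numbered 1239, 1320 and 113 in the 3 contrasts. They were 695, 776 and 189 with only the groups compared, 2214, 2377 and 257 with the replicate block, 378 between the hairpins with no filter, 310 there in DESeq2 and 188 there with trends removed. Same-numbered libraries of different groups deviated together for replicate 1 (correlations from 0.52 to 0.62) and replicate 3 (0.43 to 0.56). For replicate 2 they did not (−0.18 to 0.03), and not every library was closest to its own number. The labels do not say what equal numbers share, and the main fit had group as its only factor. The source of these shared deviations was not tested. TMED1 and TMED8 had the lowest counts and the largest SEs of the members.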
